A study of Mus musculus with 8 samples.

Results

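DNA methylation at 10 genes of the major histocompatibility complex (MHC) and of antigen presentation was examined in muscle stem cells at a young and an old age. The set held 6 class I and processing genes (H2-K1, H2-D1, B2m, Tap1, Psmb8 and Nlrc5) and 4 class II genes (H2-Aa, H2-Ab1, H2-Eb1 and Ciita), out of 21631 protein-coding genes. Each gene was taken as its RefSeq span in mouse build mm10 plus 3 kb on each side, which gave 5416 CpG cytosine positions, 3524 for class I and processing and 1892 for class II, of 32984740 positions on chromosomes 1 to 19 and X. The cells were quiescent muscle stem cells, the resting cells that rebuild muscle after injury, sorted from limb muscles of male C57BL/6 mice as CD45-, CD31-, Sca1- and VCAM+ cells. Libraries for whole-genome bisulfite sequencing, in which unmethylated cytosines are converted and read as T, came from 4 young animals aged 4 months and 4 old animals aged 22 months. Each library held the cells of 1 animal. The comparison asks whether methylation of these genes differs between the ages.

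Class I molecules sit on most nucleated cells and show peptides from inside the cell to cytotoxic T cells. Their heavy chains (H2-K1, H2-D1) pair with the light chain B2m, take peptides cut by immunoproteasome subunits such as Psmb8 and pumped by Tap1, and are switched on by the transactivator Nlrc5. Class II molecules show peptides from outside the cell to helper T cells and are made mainly by B cells, macrophages and dendritic cells. Their chains (H2-Aa, H2-Ab1, H2-Eb1) depend on the transactivator Ciita, which is transcribed from several alternative promoters. Interferon gamma induces both classes in many cell types. DNA methylation at CpG-rich promoters goes with silencing.

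The deposited table holds 1 methylation level and 1 dispersion per age group for each position, so every level given here is a group mean of the authors and carries no SD. The labels give 115000000 to 200000000 reads per library, and the depth at a position is unknown. With group values alone, the ages could not be compared with the spread among animals. The tests used are the authors' p per position and a bound on the p of a whole window built from them. A level averages over cells and over both alleles, so intermediate levels cannot be told apart from a mixture of cells. The start windows of the muscle stem cell markers were mostly unmethylated, with 6 of 7 under 20% in young cells and Pax7, which specifies the lineage, at 3.35% (young) and 3.41% (old). Of 10 blood cell markers, 9 were over 20% in young cells, with a range over the list of 18.4% to 77.9% in young and 16.2% to 79.7% in old cells. Over all genes 12697 of 19992 starts were under 20% in young cells.

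The 250 bases before the start held more CpGs in the class I genes that could be matched than in the class II genes. RefSeq promoters (GRCm38.p6) were found for 7 of the 10 genes. Not matched were Nlrc5, H2-Ab1 and Ciita. A pair of class I heavy chains, the light chain and a pair of class II chains are shown 5′ to 3′ on the gene's strand, with every CpG in capitals, since these are the bases that can be methylated. They lie at chr17:34000348-34000597 on the minus strand (H2-K1), chr17:35262844-35263093 on the plus strand (H2-D1), chr2:122147437-122147686 on the plus strand (B2m), chr17:34287824-34288073 on the minus strand (H2-Aa) and chr17:34305617-34305866 on the plus strand (H2-Eb1).
H2-K1: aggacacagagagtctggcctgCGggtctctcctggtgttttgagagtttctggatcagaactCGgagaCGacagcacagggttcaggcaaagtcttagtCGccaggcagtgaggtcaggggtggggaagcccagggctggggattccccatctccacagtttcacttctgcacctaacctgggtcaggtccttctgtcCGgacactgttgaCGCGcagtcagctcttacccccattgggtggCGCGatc
H2-D1: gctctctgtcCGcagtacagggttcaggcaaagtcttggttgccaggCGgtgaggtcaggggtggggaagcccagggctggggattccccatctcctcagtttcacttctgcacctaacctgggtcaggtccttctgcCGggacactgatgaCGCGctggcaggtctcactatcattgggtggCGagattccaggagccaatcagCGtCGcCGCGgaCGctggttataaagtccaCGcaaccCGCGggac
B2m: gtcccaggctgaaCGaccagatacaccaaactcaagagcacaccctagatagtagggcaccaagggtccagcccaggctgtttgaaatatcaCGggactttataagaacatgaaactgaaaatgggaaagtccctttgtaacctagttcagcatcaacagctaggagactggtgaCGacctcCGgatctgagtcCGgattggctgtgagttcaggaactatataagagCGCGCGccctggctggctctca
H2-Aa: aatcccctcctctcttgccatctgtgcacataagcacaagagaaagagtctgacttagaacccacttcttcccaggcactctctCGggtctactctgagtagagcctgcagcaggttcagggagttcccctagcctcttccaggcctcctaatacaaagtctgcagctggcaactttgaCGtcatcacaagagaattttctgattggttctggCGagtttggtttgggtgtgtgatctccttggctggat
H2-Eb1: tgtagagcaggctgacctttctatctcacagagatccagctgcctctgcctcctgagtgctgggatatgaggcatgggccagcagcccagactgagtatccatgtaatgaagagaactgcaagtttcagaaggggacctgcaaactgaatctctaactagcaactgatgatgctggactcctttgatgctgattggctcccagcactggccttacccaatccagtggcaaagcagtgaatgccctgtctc
H2-D1 and Tap1 had 14 CpGs each in this window, Psmb8 had 10, H2-K1 had 9 and B2m had 8. H2-Aa had 3 CpGs and H2-Eb1 had 0, against a median of 6 over 27025 genes of the promoter table.

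Within these bases the methylation level was low in class I and higher in H2-Aa. H2-K1 stood at 2.86% (young) and 2.80% (old), H2-D1 at 2.56% and 2.69%, B2m at 2.81% and 2.35%, Tap1 at 2.37% and 2.02%, and Psmb8 at 3.79% and 3.53%. H2-Aa stood at 20.2% (young) and 15.8% (old). MHC promoters carry an X box and a Y box, the sites through which Nlrc5 and Ciita act. The letters TGACG, the core of a cAMP response element and the second part of the X box, were followed by ATTGG, the Y box, at a distance of 25 bases from first base to first base in H2-K1, H2-D1 and B2m and of 26 bases in H2-Aa. This spacing was noticed in the members and then searched on both strands at 24 to 27 bases, where 61 of 27025 promoters (0.226%) held it. Alone, TGACG was in 17.9% and ATTGG in 34.5% of promoters on either strand. The CpG inside TGACG stood at 2.18% (young) and 2.05% (old) in H2-K1, at 2.47% and 2.60% in H2-D1, and at 2.5% and 2.14% in B2m. In H2-Aa it stood at 18.9% (young) and 15.6% (old), the highest of these 4 sites at both ages. Tap1 held both sets of letters on opposite strands, and not at this spacing. H2-Eb1 held ATTGG and the looser X box letters AGNAACNG without TGACG, and no CpG. Psmb8 also held AGNAACNG, which was in 14.6% of promoters on either strand. A match is a description and was not tested for binding.

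All 6 class I and processing genes had nearly unmethylated starts at both ages. Within 1 kb of the start, the peptide transporter Tap1 stood at 3.66% (young) and 3.24% (old) over 183 positions. H2-K1 stood at 3.78% and 3.29% over 250 positions, and H2-D1 at 5.39% and 4.69% over 259. The immunoproteasome subunit Psmb8 stood at 9.28% and 8.47% over 161 positions. B2m stood at 12.1% (young) and 10.02% (old) over 124 positions. Nlrc5, where the less methylated gene end stood in for the start, was at 13.4% and 12.1% over 82 positions. The order of the levels from Tap1 to Nlrc5 was the same at both ages.

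The old value was the lower one at all 6 class I starts, with differences from -0.416 points in Tap1 to -2.05 points in B2m and a median of -0.750 points. Over all starts 54.2% were lower and 45.8% higher in old. Of all starts with a young level under 20%, 60.6% were lower in old, with a median of -0.0875 points and a middle range from -0.327 to 0.159 points, so the direction is that of most low starts and 6 of 6 of the members had it. None passed: 0 of 19992 start windows had an adjusted p under 0.05 (0% called; Benjamini-Hochberg over all windows), and 5 (0.025%) had an unadjusted p under 0.05, none of them a member. With 500 bp on each side the differences shrank to -0.599 points in B2m, -0.453 in Nlrc5, -0.304 in Tap1, -0.191 in Psmb8, -0.165 in H2-K1 and -0.0008 in H2-D1. With windows of 2 kb on each side Tap1 (0.293 points), Psmb8 (0.721 points) and Nlrc5 (0.0385 points) were higher in old, and by the median over positions H2-D1 was (0.15 points). Mitochondrial DNA, which is nearly unmethylated, was also lower in old, at 1.08% against 1.18% over 373 positions. The part of bisulfite conversion in these small differences was not tested.

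At B2m, H2-D1 and Nlrc5 the ages were further apart in single bins of the upstream shoulder than on the floor of the dip. In 250-bp bins, B2m stood at 48.8% (young) and 35.9% (old) in the bin centred at -625 bp (7 positions) and at 2.75% and 2.22% in the first bin past the start. H2-D1 stood at 43.8% and 33.01% at -625 bp (6 positions) and at 2.37% and 2.52% in the first bin past the start. Nlrc5 stood at 58.5% and 47.05% at -875 bp (4 positions) and at 2.25% and 2.16% in the first bin past the start. The shoulders are sparse in CpGs and neighbouring positions can share a level, so few positions set these values. The floor leaves little room for a lower value, and the part of the level in the gaps on the shoulder was not tested. Such gaps were not confined to the upstream side or to 1 direction. Past the start, H2-D1 stood at 52.1% (young) and 37.5% (old) at 1375 bp (10 positions). Further upstream, Nlrc5 was higher in old, with 44.0% (young) and 62.2% (old) at -1875 bp (6 positions). Psmb8 was also higher in old at its shoulder, with 64.9% (young) and 74.6% (old) at -1125 bp (14 positions).

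**Figure D1:**
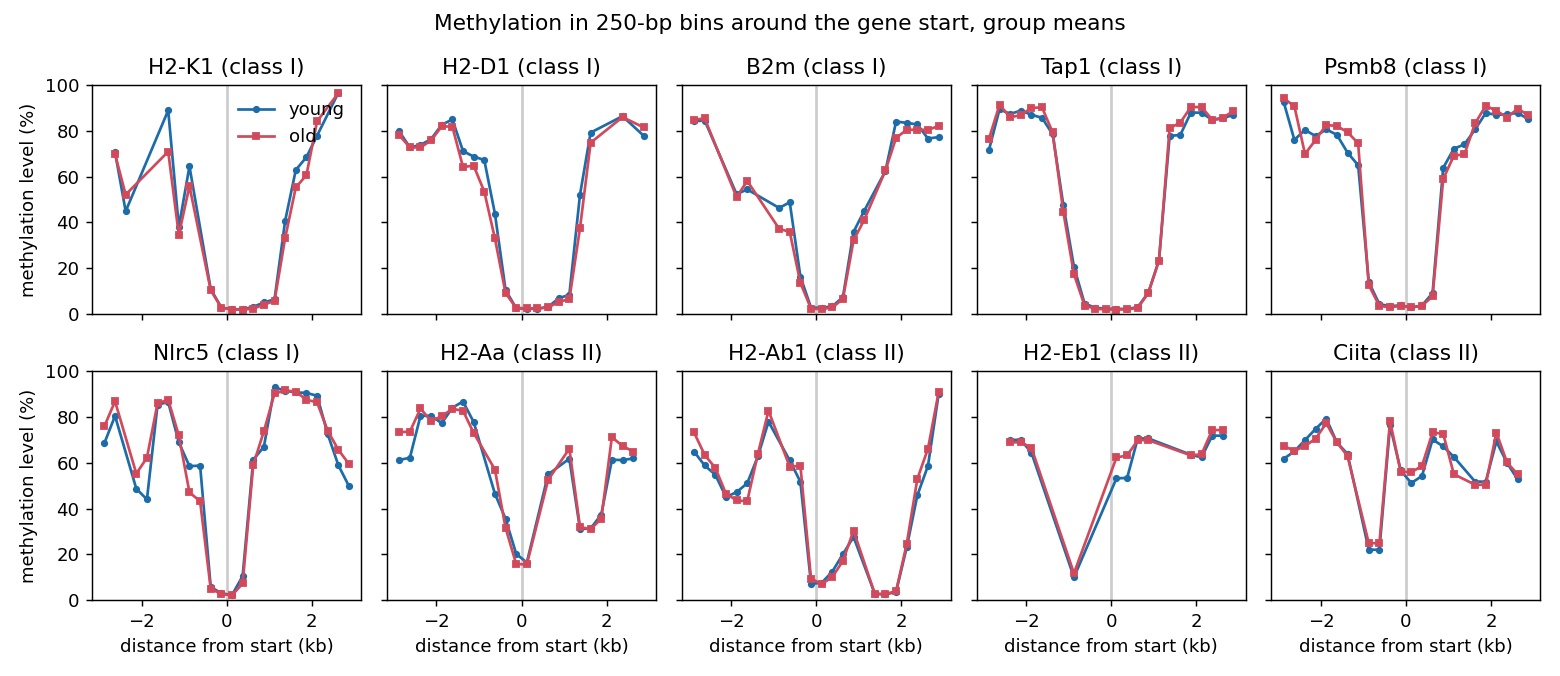
Authors' group mean methylation level (%) in 250-bp bins against distance from the gene start (kb, negative upstream) for the 10 genes, young as circles and old as squares; for Nlrc5, H2-Ab1 and Ciita the less methylated gene end stands in for the start. The 6 class I and processing genes drop to under 4% at the start, while H2-Eb1 and Ciita are over 50% in the first bin past it and dip upstream; lines run across bins without positions.

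Class II starts were poor in CpGs and ranged from 20.02% to 53.5% in young cells. H2-Ab1, the beta chain of I-A, stood at 20.02% (young) and 19.7% (old) over 65 positions. Its partner H2-Aa stood at 31.4% and 29.7% over 30 positions. H2-Eb1, the beta chain of I-E, stood at 47.3% (young) and 52.7% (old) over 26 positions. Ciita stood at 53.5% and 56.5% over 38 positions at its less methylated end. Both of the last had a dip upstream of the start: the bin centred at -875 bp stood at 10.01% (young) and 11.8% (old) in H2-Eb1 (6 positions) and at 22.03% and 24.9% in Ciita (5 positions). Old minus young was -0.327 points in H2-Ab1, -1.68 in H2-Aa, 5.35 in H2-Eb1 and 2.92 in Ciita. H2-Eb1 lay at the 97.9th percentile of differences over all starts, and Ciita at the 93.6th. Starts at least 5 points apart made up 4.02% of all starts, and H2-Eb1 was the 1 member among them. Most starts were less methylated than these and held more positions (median 129). So these ranks and this share do not compare starts of like level or size. The sign of each of these 4 was the same under the 5 alternatives that can change the value, with 3.87 to 9.50 points for H2-Eb1, 1.52 to 3.38 for Ciita, -6.68 to -0.616 for H2-Aa and -2.49 to -0.0152 for H2-Ab1. None was called.

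**Figure D2:**
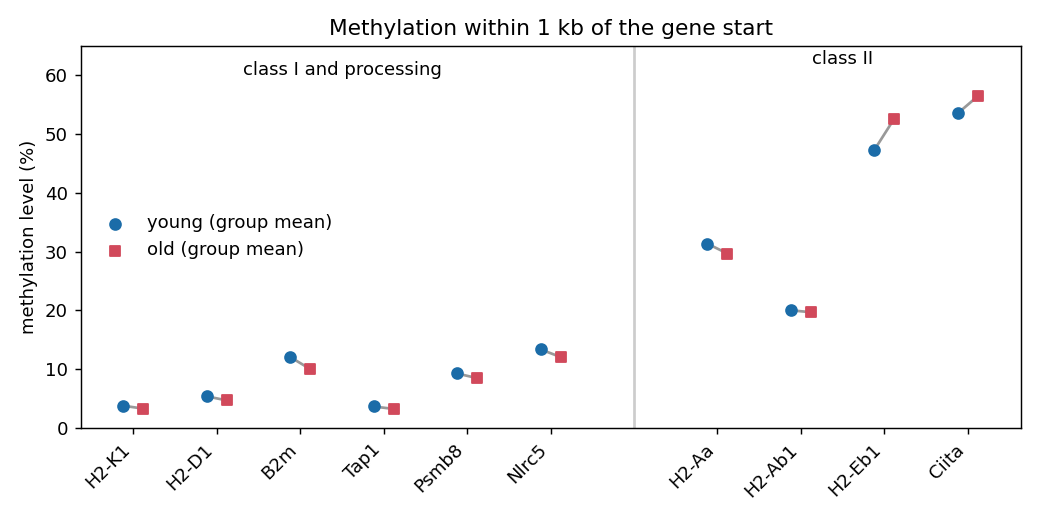
Authors' group mean methylation level (%) within 1 kb of the start for each gene, young as circles and old as squares, 1 value per age. The 6 class I and processing genes sit between 3.66% and 13.4% in young cells, below all 4 class II genes, which sit between 20.02% and 53.5%.

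Within 1 kb of the start the classes did not overlap, and over whole regions they did. With 2 kb on each side they also overlapped at the starts, where the young level of Nlrc5 was 42.5%, of Psmb8 33.1% and of Tap1 24.7%, against 12.7% for H2-Ab1. At the starts, class I and processing genes averaged 7.93% (young) and 6.96% (old) and class II genes 38.1% and 39.6%, against 25.8% and 25.9% over all protein-coding genes. The median over all genes was 10.1% at both ages, and 12697 of 19992 starts were under 20% in young cells, so low starts are the usual case. B2m lay at the 54.4th and Nlrc5 at the 56.7th percentile of young start levels. Over the regions the means were 39.6% at both ages for class I and processing, and 47.1% (young) and 47.8% (old) for class II. The 10 genes differed in length and CpG content, so the mean over genes and over positions differ: over pooled positions class I and processing stood at 47.8% and 48.5% and class II at 50.2% and 50.8%. The number of listed positions within 1 kb of the start was 82 to 259 in class I and processing and 26 to 65 in class II, so the class II starts rest on fewer positions. Genes are not replicates of a condition, so the classes were not tested against each other.

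Dispersion, the authors' measure of spread for each age group, which the sources used here do not define, was close in both classes. Its mean over the regions was 0.0492 in young and 0.0501 in old cells for class I and processing, and 0.0501 and 0.0537 for class II, against 0.0486 and 0.0490 over all protein-coding genes. All 4 class II regions had a higher mean in old, from H2-Ab1 (0.0495 in young, 0.0499 in old) to H2-Aa (0.0509 and 0.0561), and a lower median over positions. The median was 0.0446 in young and 0.0437 in old for H2-Ab1, and 0.0438 and 0.0434, the most common value of each age, for the other class II genes. H2-Eb1 went from 0.0483 to 0.0534 and Ciita from 0.0518 to 0.0554. Of the class I and processing genes, H2-K1 (0.0469 and 0.0486), B2m (0.0475 and 0.0487), Psmb8 (0.0496 and 0.0509) and Nlrc5 (0.0510 and 0.0531) were higher in old. H2-D1 (0.0512 and 0.0503) and Tap1 (0.0491 in both) were not. No test of dispersion between the ages could be made. The share of all regions with a higher mean in old was not counted, so these counts have no background.

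Unmethylated stretches, runs of at least 10 neighbouring positions with a mean of both ages under 20% at each and gaps of at most 300 bp, covered the start of 8 of the 10 genes. They spanned the start of all 6 class I and processing genes and of H2-Aa and H2-Ab1. The share of all genes with such a stretch at the start was not counted, so this count has no background. Low starts are the usual case, with 12697 of 19992 under 20% in young cells. For Nlrc5 and H2-Ab1 the less methylated gene end stood in for the start, which favours a stretch there. The longest was that of Tap1, with 1815 bp at chr17:34186755-34188569, and the shortest that of H2-Aa, with 341 bp at chr17:34287649-34287989. The 6 class I stretches stood at 3.57% to 4.25% in young and 3.12% to 3.78% in old cells. Those of H2-Ab1 (11.5% and 10.1%) and H2-Aa (17.9% and 15.7%) were shallower.

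Of the class II genes, H2-Eb1, H2-Ab1 and Ciita had low stretches inside the gene. Such stretches were not particular to class II, since Nlrc5 and Tap1 also had them. Those of Nlrc5 stood at 10.8% (young) and 9.73% (old), and at 16.9% and 15.01%. In H2-Eb1, 78 positions at chr17:34309452-34310065 stood at 11.1% (young) and 11.2% (old). H2-Ab1 had a second stretch of 174 positions at chr17:34264479-34265303, at 3.43% (young) and 3.54% (old), deeper than the one at its start. Ciita had 4 stretches inside the gene, at 9.50, 18.3, 21.9 and 30.7 kb from its less methylated end. They stood at 7.05% (young) and 6.18% (old), at 11.4% and 8.61%, at 9.97% and 10.2%, and at 17.3% and 17.1%, in that order. The gene table used here lists no exons, so the stretches were not assigned to exons or to the alternative promoters of Ciita.

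Of the 18 stretches in the 10 regions, counted once each, 15 were lower in old. Over the genome 57.4% of 52646 stretches found the same way were lower in old, and 62.3% of those with a young level of 3% to 5%. The 6 class I starts differed by -0.382 to -0.538 points, against a median of -0.0926 points and a lower quartile of -0.286 points over that level. The widest gap was in a stretch of 10 positions inside Tap1, 4.25 kb from the start, at 23.2% (young) and 15.2% (old). Its young level was over 20%, so it met the limit of 20% on the mean of both ages only through its lower old level. The limit therefore fixed the direction of this gap, and the count of 15 includes this stretch. No position of the 6 class I start stretches had a p under 0.05 in the authors' deposited table; the smallest was 0.109, in Nlrc5.

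**Figure D3:**
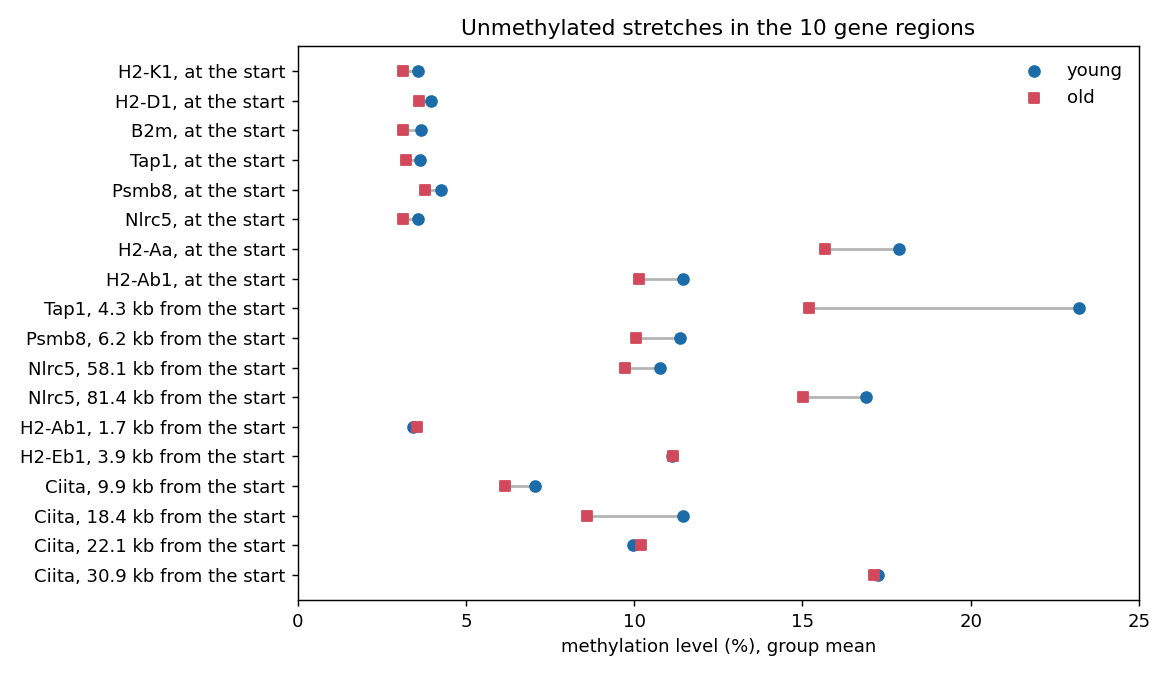
Authors' group mean methylation level (%) of the 18 unmethylated stretches, young as circles and old as squares joined by a line, labelled by gene and distance from the start (kb). The 6 class I and processing starts lie together between 3.12% and 4.25% with the old value to the left in each.

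Over whole regions the class I genes split. The heavy chains and the light chain were lower in old: H2-K1 stood at 19.6% (young) and 18.9% (old), H2-D1 at 24.1% and 23.0025%, and B2m at 46.9% and 45.3%. The processing genes and the transactivator were higher: Tap1 stood at 41.4% and 42.2%, Psmb8 at 44.3% and 45.1%, and Nlrc5 at 61.5% and 63.1%. Tap1 and Psmb8 are neighbours whose regions overlap, so they are not separate measurements. All 4 class II regions were higher in old, with H2-Ab1 at 29.3% and 29.8%, H2-Eb1 at 43.4% and 44.5%, H2-Aa at 56.7% and 57.7%, and Ciita at 58.8% and 59.4%. Over all protein-coding genes 72.9% of regions were higher in old, with a median of 0.375 points, so 4 of 4 is near what most regions did. The differences of H2-K1, H2-D1 and B2m, at -0.624, -1.13 and -1.56 points, lay at the 9.26th, 5.08th and 3.49th percentile of all regions, and that of Nlrc5, at 1.63 points, at the 92.9th. None was called: 0 of 21332 regions had an adjusted p under 0.05 (0% called), and 2 (0.00938%) had an unadjusted p under 0.05, neither of them a member. No member region was 5 points or more apart by the mean over positions, against 1.55% of all regions. The old median level over positions less the young one was -7.92 points in B2m (49.29% in young and 41.37% in old). It was 5.53 in H2-Aa, 4.69 in Tap1, 4.45 in Psmb8, 2.69 in Nlrc5, 2.5 in H2-Eb1, -0.94 in H2-K1 and -0.11 in H2-D1. Each was over 1.5 times from the difference of the means. A gap between medians is not the median of the differences per position. The share of all regions at least 5 points apart by medians was not counted. H2-K1 was higher in old with flanks of 10 kb (0.142 points), Psmb8 lower without flanks (-0.0893 points), and H2-Ab1 lower by the median over positions (-1.37 points).

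**Figure D4:**
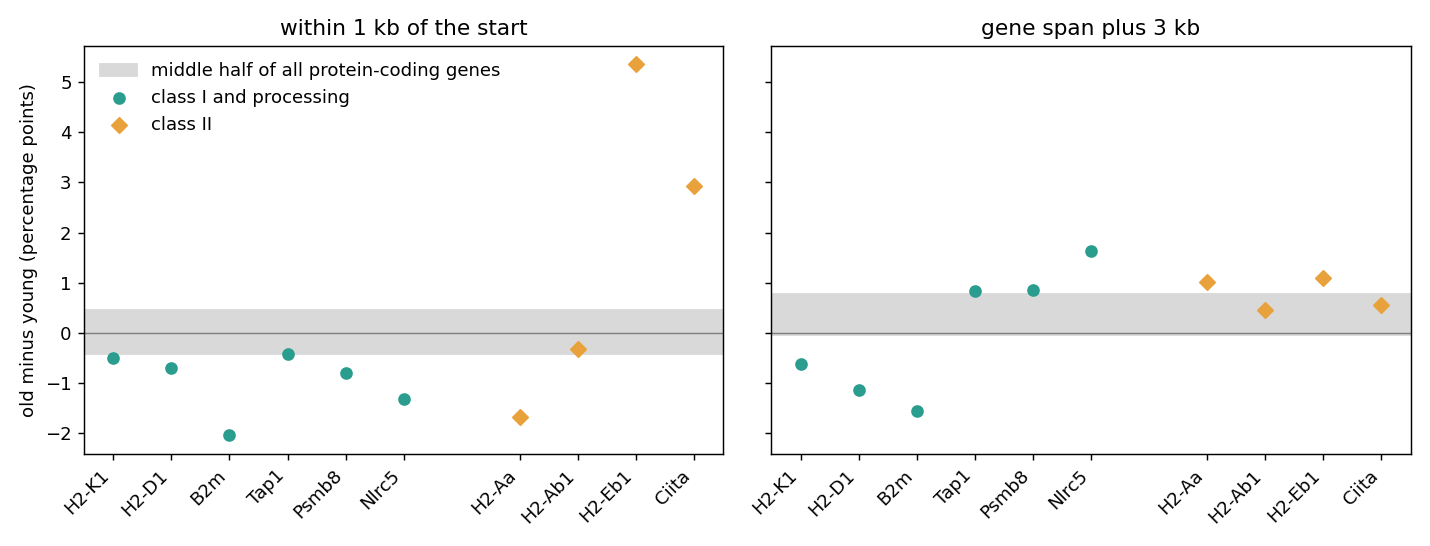
Old minus young methylation (percentage points, authors' group means) within 1 kb of the start (left) and over the gene span plus 3 kb (right), class I and processing as circles and class II as diamonds; the grey band is the middle range, from the lower to the upper quartile, of all protein-coding genes. At the starts H2-Eb1 (5.35 points) and Ciita (2.92 points) lie above the band and 6 genes below it, namely H2-Aa and all class I and processing genes but Tap1. Over the regions H2-K1, H2-D1 and B2m lie below it and Tap1, Psmb8, Nlrc5, H2-Aa and H2-Eb1 above.

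Single positions passed the authors' FDR of 0.05 at about the rate of the genome. There were 13 such positions in the 10 regions (0.24% of 5416), against 0.236% of all positions. Of these 9 were higher in old and 4 lower, where 0.132% of all positions passed as higher and 0.105% as lower. Nlrc5 held 6, all higher in old, Ciita 3, H2-Aa 2 and H2-D1 1, and 1 inside Tap1 also lay in the flank of Psmb8. A pair of those in Nlrc5, at 94489902 and 94489906, had the same levels, dispersions and p. They cannot be counted as separate measurements, and the counts of 6, 9 and 13 include both. H2-K1, B2m, H2-Ab1 and H2-Eb1 held 0. None lay at a young level under 20%. All 13 had the most common dispersion value in young (0.0438), and 91.7% of called positions over the genome had the most common value in young or in old. Off that value 0.0258% of positions over the genome passed, and 0 in the members. For each of the 13 the neighbouring cytosine on the other strand was listed, and 0 of these neighbours passed. Over the genome 77990 positions passed, and 1039 CpGs had both cytosines past the FDR. That is 0.00695% of all CpGs with both listed, called or not. The median p of the 13 neighbours was 0.152 in the authors' deposited table, with 2 under 0.05. All 13 neighbours had the same levels as the called position at both ages, to the last digit listed, and 0 had the same dispersion in young, so a call and its neighbour differed in dispersion and p and not in level.

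Inside Tap1, position 34195630 of chromosome 17 had the lowest p of all members' positions, by the authors' deposited table. It stood at 76.1% (young) and 90.8% (old), with an FDR of 4.13e-10 in the authors' deposited table, and the p of its neighbour was 0.146. The 2 called positions near H2-Aa, beyond the gene's far end, were lower in old. At 34280586 the level was 67.6% (young) and 53.5% (old), with an FDR of 3.645e-07 in the authors' deposited table. Those of Ciita went both ways: 55.3% (young) and 44.3% (old) at 10509391 on chromosome 16, 83.1% and 67.8% at 10517119, and 60.95% and 79.3% at 10525613. That of H2-D1, past the gene, stood at 20.2% and 32.2%, and its neighbour had a p of 0.00717 in the authors' deposited table. In H2-K1 the lowest p was 0.000177 by the authors' deposited table, at a position that lay upstream of the start and stood at 88.9% (young) and 70.9% (old), with an FDR of 0.0679. In B2m it stood at 47.5% and 28.2% (FDR 0.350 in the authors' deposited table), in H2-Eb1 at 35.9% and 52.2% (FDR 0.136), and in H2-Ab1 at 35.5% and 48.5% (FDR 1).

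Nlrc5, the class I transactivator and the longest member, held the most positions with a p under 0.05 in the authors' deposited table. These were 4.36% of its 1675 positions, against 2.61% of all positions and 0.251% to 3.60% in the other members. By the FDR the share was larger in H2-Aa, with 2 of 139 positions, than in Nlrc5, with 6 of 1675. The called positions of Nlrc5 stood at 33.04% (young) and 58.2% (old) 1.95 kb outside the gene, at 31.4% and 41.2%, at 41.4% and 64.8%, at 42.9% and 58.4%, and at 67.2% and 75.9% at a pair of cytosines 4 bp apart. The gene spans 92.9 kb on chromosome 8, from 94434335 to 94527272. Of its positions 60.4% were higher in old, against 53.9% of all positions, 66.4% in H2-Ab1 and 61.6% in H2-Eb1. In 1-kb tiles with at least 10 positions, 47 of 78 were higher in old and 5 were at least 10 points apart. These 5 went both ways: 79.9% (young) and 64.6% (old), 70.7% and 55.2%, 72.4% and 83.7%, 42.3% and 56.98%, and 61.2% and 78.02%. The last, at 94478001 to 94479000, held the only run of at least 5 neighbouring positions with 1 sign and p under 0.05 in the authors' deposited table, 88 bp long, from 61.2% to 78.02% (no position past the FDR). It was the 1 tile of 202 in the 10 regions with an unadjusted p under 0.05 (0.0397; adjusted p 1 by Benjamini-Hochberg over all tiles), where 0.106% of all tiles had one. The 12 positions of this tile and the 5 of the run had the same mean levels at both ages. They can therefore not be counted as separate measurements. Of the 202 tiles 57.4% were higher in old, against 56.1% of all tiles. Over the 10 regions 6 of 202 tiles (2.97%) were at least 10 points apart, against 2.13% of all tiles, and 0 were called, against 1 of 1231304 over the genome (8.12e-05%).

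Ciita, the class II transactivator, was the longest class II gene, with 51.1 kb on chromosome 16 from 10480014 to 10531064. Of its 49 tiles 31 were higher in old, and the tile levels in young cells ran from 10.7% to 87.2%. The largest difference was 10.7 points, from 69.9% to 80.7%, and the lowest was -5.33 points. At p under 0.05 in the authors' deposited table there were 8 of 1078 positions (0.742%), against 2.61% of all positions.

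**Figure D5:**
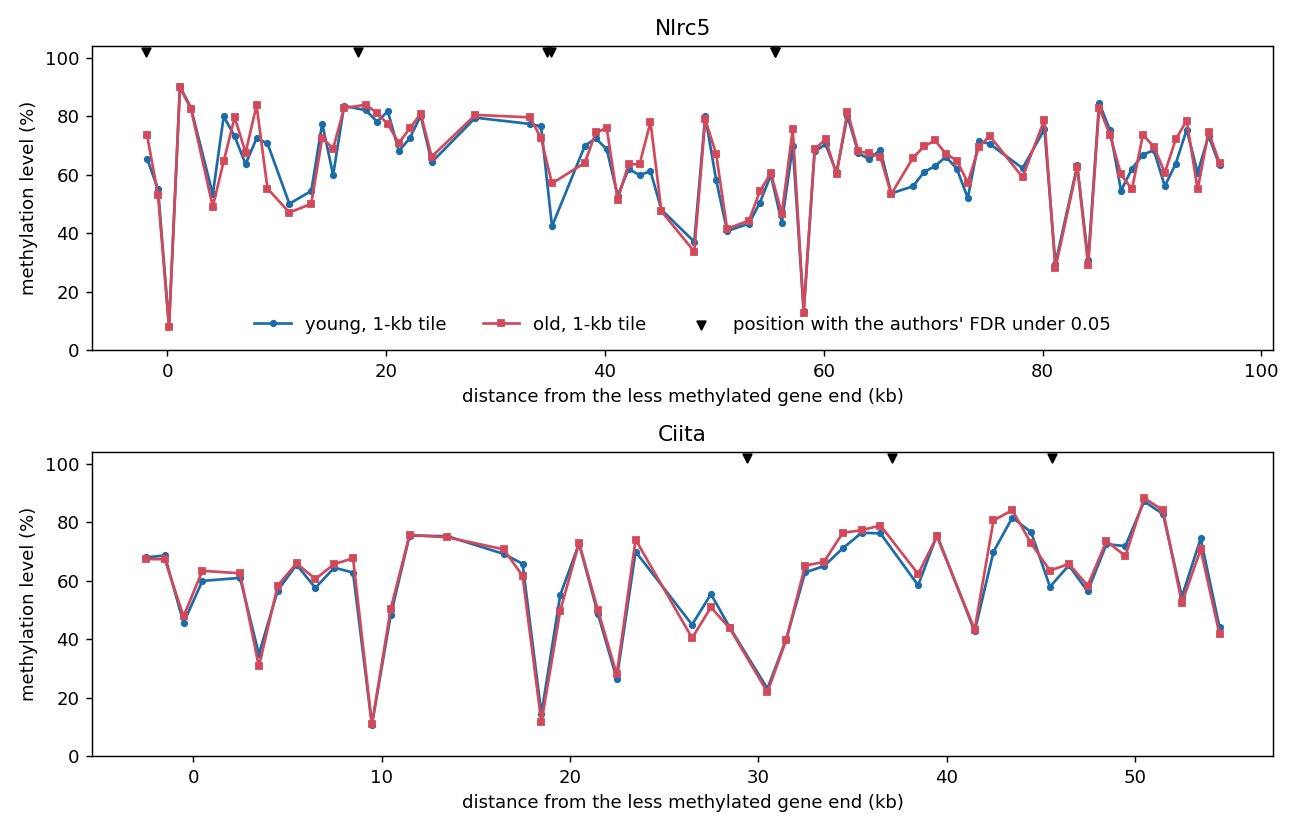
Authors' group mean methylation level (%) in 1-kb tiles with at least 10 positions along Nlrc5 (top) and Ciita (bottom), against distance from the less methylated gene end (kb), young as circles and old as squares, with lines joining the tiles across gaps without a value; triangles mark positions whose FDR in the authors' deposited table was under 0.05. Both genes dip to low levels at the same places at both ages, and the ages part most in Nlrc5 in tiles away from these dips.

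Other genes of antigen presentation showed a like contrast of levels. Of 21 further class I and processing genes 19 had a start under 20% in young cells, with a median of 7.80%. Over all genes 12697 of 19992 starts were under 20%. The old value was lower in 15 of the 21, where 54.2% of all starts and 60.6% of those under 20% were lower. The widest differences were those of Tapbpl (20.9% in young, 19.2% in old), H2-T22 (9.38% and 7.78%) and Psme2 (5.95% and 4.97%) among the lower ones, and of H2-Q6 (9.35% and 10.8%), H2-Q4 (6.33% and 6.98%) and H2-Q1 (4.33% and 4.66%) among the higher ones. Psme2 encodes a proteasome activator subunit, and H2-Q and H2-T genes encode nonclassical class I molecules. H2-K1, H2-D1, H2-Q and H2-T genes resemble each other in sequence, and the sources used here do not say how reads that match several of them were placed, so their levels are uncertain. Of 11 measured class II genes 4 had a start under 20%, and the young median was 55.7%. The old value was lower in 8 of the 11, against 54.2% of all starts. H2-Eb2 (48.8% and 46.6%), Cd74, the invariant chain (75.9% and 74.4%), and H2-Ob (55.7% and 54.4%) differed most among the lower ones. H2-Oa (56.2% and 56.6%), Ctsl (8.87% and 9.26%) and Ifi30 (8.68% and 9.05%) differed most among the higher ones. Of 16 regulators, among them the X box and Y box binding factors and the interferon gamma pathway, all started under 20% and 8 were higher and 8 lower in old, within -0.762 to 0.337 points. None of the genes of these lists was called at its start or over its region, and 0 had an unadjusted p under 0.05 at the start.

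Markers of other cells that a muscle sort could hold were compared at their starts in the same way. Over all starts 45.8% were higher in old, with a median of -0.0505 points. Blood cell markers were higher in old in 6 of 10, with a median of 1.04 points. Lyz2, a myeloid lysozyme gene, stood at 59.5% (young) and 52.1% (old), and Ptprc, which encodes CD45, at 68.6% and 70.4%. Endothelial markers were higher in 4 of 6 (median 1.29 points, 5.999% to 72.5% in young and 5.59% to 73.2% in old cells) and fibro-adipogenic markers in 3 of 5 (median 1.97 points, 6.59% to 66.7% and 6.54% to 68.6%). Muscle stem cell markers were higher in 4 of 7, with a median of 0.0527 points. None was called. The part of other cells in the class II differences was not tested.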

How the data were processed

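Methylation was measured in 8 libraries (4 young, 4 old), with age from the labels as the group. The submitters' processing notes list the builds mm10 and GRCm38 and the tools Bismark, Trim Galore and edgeR. What each tool did, which one tested and whether any smoothed the levels was not stated there. The deposited table gives, per the file headers, a level per age as a fraction (multiplied to percent here), a dispersion score whose definition is not given, and the authors' p-value and FDR per position. Tests over animals were not run, since values are per age group and reads are not listed. Deposited positions count from 0: counted from 1, the C of a RefSeq promoter CpG was listed in 96.2% at its coordinate less 1 and in 96.3% at its coordinate (its G counted from 0), against 10.1% at the coordinate plus 1. So 1 was added throughout.

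Gene spans and starts came from RefSeq GRCm38.p6; 17274 of 21631 genes had a start in the promoter table (the first listed was used). Otherwise the less methylated gene end stood in, which favours low values. A window of at least 10 positions was given a p of 2 times its median deposited p, a bound under any dependence, with Benjamini-Hochberg adjustment over all windows and calls at 0.05. This test asks that most of a window shifts, and was tested on simulated data, where it missed the changes once the error per position was large. Members, lists and alternatives were chosen with earlier results of these data known. All 10 members are named, other genes by the 3 widest start differences in each direction where none was called, and Lyz2, Ptprc and Pax7 were named after their values were seen; the motif spacing was also chosen after seeing the data. Of the fixed lists H2-Ea is not analysed here. Computation used Python 3.11.15, numpy 2.4.6 and pandas 2.3.3.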

Additional observations from a re-analysis of the deposited data

How the results depend on the processing

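The count of called start windows and regions stayed at 0 under each alternative run (other flanks, window sizes, position minimum, strands averaged, without positions at the most common dispersion, 4 times the lower quartile of p). This count says little about differences of the size seen here, which the test can miss. With 5-kb tiles 0 tiles were called over the genome in place of 1. Called positions over the genome numbered 77990 at an FDR of 0.05, 51296 at 0.01, 6467 without positions at the most common dispersion and 1039 CpGs with both cytosines past the threshold. The level of class I and processing genes less that of class II genes was -7.44 points in young and -8.22 in old cells over the regions, -2.35 and -2.32 over pooled positions, and -30.1 and -32.7 at the starts. The gap between the classes in old minus young was -0.781 points over the regions, 0.0287 over pooled positions and -2.53 at the starts, so its sign depends on the weighting. The gap in dispersion over the regions was -0.00092 (young) and -0.00361 (old), with -0.00065 and -0.0027 over pooled positions, and -0.0016 and -0.00448 at the starts. No paired analysis was possible because the table holds no values per animal; for the same reason leaving out each replicate and coverage minimums were not run. What depth limits cannot be stated, since no depth per position is given.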
